A study of Mus musculus with 58 samples.

Results

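Lithium was compared with vehicle in prefrontal cortex of wild-type (WT) C57BL/6J mice by RNA sequencing, in 8 lithium libraries (4 female, 4 male) and 10 vehicle libraries (5 female, 5 male) out of the 58 libraries of the series. The libraries were chosen by their labels, and all genes were described. The mice were studied on postnatal day 25, after 3 weeks of lithium or vehicle (day 3 to 24) taken in with maternal milk. The remaining libraries came from mice given fluoxetine and from mice heterozygous for a Tbl1xr1 knock-in allele (HT), with 5 libraries for each genotype, drug and sex, of which 10 HT lithium and 10 HT vehicle libraries are set beside the WT result. The labels name no dose, dam or litter, so litter and drug cannot be told apart. Whether every library stands for its own animal is not stated, and the p-values therefore refer to the variation among libraries, which may be technical.

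Lithium is a mood stabiliser that inhibits glycogen synthase kinase 3 (GSK3) and inositol monophosphatase. In canonical Wnt signalling GSK3 phosphorylates beta-catenin and so marks it for degradation, and when GSK3 is inhibited beta-catenin builds up and acts with TCF/LEF factors on genes such as Axin2, Lef1 and Ccnd1. GSK3 also acts on transcription factors and metabolic enzymes outside this pathway.

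Values are read counts that were divided by 1 size factor per library (normalised read counts). The lithium libraries held 24.73 to 31.66 M reads and the vehicle libraries 23.53 to 35.01 M. Changes are differences of log2(value + 1), lithium minus vehicle, with the standard error (SE) of 1 limma model over all 58 libraries, and both sexes have equal weight. The words rose, fell and called are used of a gene when its Benjamini-Hochberg adjusted p over all 16606 genes tested was under 0.05. Tbl1xr1, whose allele sets the genotypes, lay between 1948 and 2279 in the lithium libraries and between 2047 and 2216 in the vehicle libraries, with a change of -0.02 ± 0.036.

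The pieces of tissue were not alike in what they held besides cortex. WT vehicle female 4 had a summed count of 57139 over the choroid plexus markers, against at most 7430 in any lithium library and 7380 in any other vehicle library, and it also had the most striatal and ependymal marker reads of its group. Olfactory bulb markers ran from 1400 to 25500 in the lithium libraries and from 1500 to 33900 in the vehicle libraries. WT lithium female 3 was highest among the lithium libraries and WT vehicle male 2 among the vehicle libraries. Markers of upper-layer cortical neurons, which define the labelled tissue, had summed counts of 31400 to 34700 with lithium and 30500 to 37600 with vehicle, and no list had a marker at 0 in every library of a group. The median change without WT vehicle female 4 or WT lithium female 3 is also given where it turned sign or moved by over 1.5 times. This holds for lists whose median is given and is at least 0.02 in size. Choroid plexus markers had a median of -0.46, and -0.003 without WT vehicle female 4. Medians with all libraries, without WT vehicle female 4 and without WT lithium female 3 were -0.048, 0.065 and 0.015 for striatal markers. In the same order they were -0.043, 0.042 and -0.005 for ependymal and 0.04, 0.019 and -0.064 for thalamic markers.

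**Figure D1:**
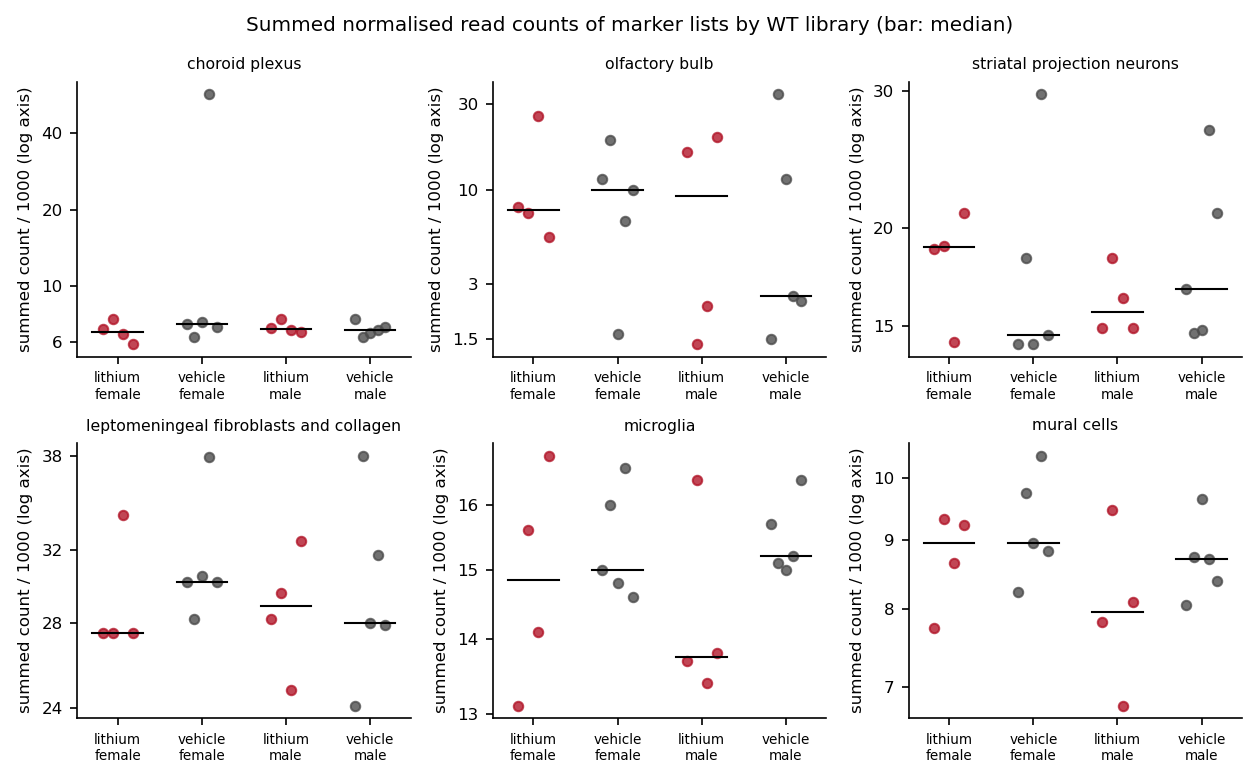
Summed normalised read counts of 6 marker lists in each WT library, on log axes labelled in units of 1000 reads, by drug and sex; each point is 1 library and the bar is the median of its group. WT vehicle female 4 stands apart at 57139 in choroid plexus, olfactory bulb markers spread from 1400 to 33900 over both drugs, and the lithium and vehicle libraries overlap in every panel.

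Few genes differed between the drugs, and the differences were small. Of 16606 genes, 5 passed the threshold (0.0301%). Ccdc43 and Atf4 rose (0.012%), and Ctnnb1, Ppp1r21 and the non-coding gene 2810013P06Rik fell (0.0181%). At an unadjusted p under 0.05 there were 1558 genes (9.38%), 825 of them higher (4.97%) and 733 lower (4.41%). The smallest adjusted p was 0.0374, the median size of a change was 0.059 and the median SE 0.074, so that a typical change was smaller than its error. Changes above 0 made up 50.9% of all genes.

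**Figure D2:**
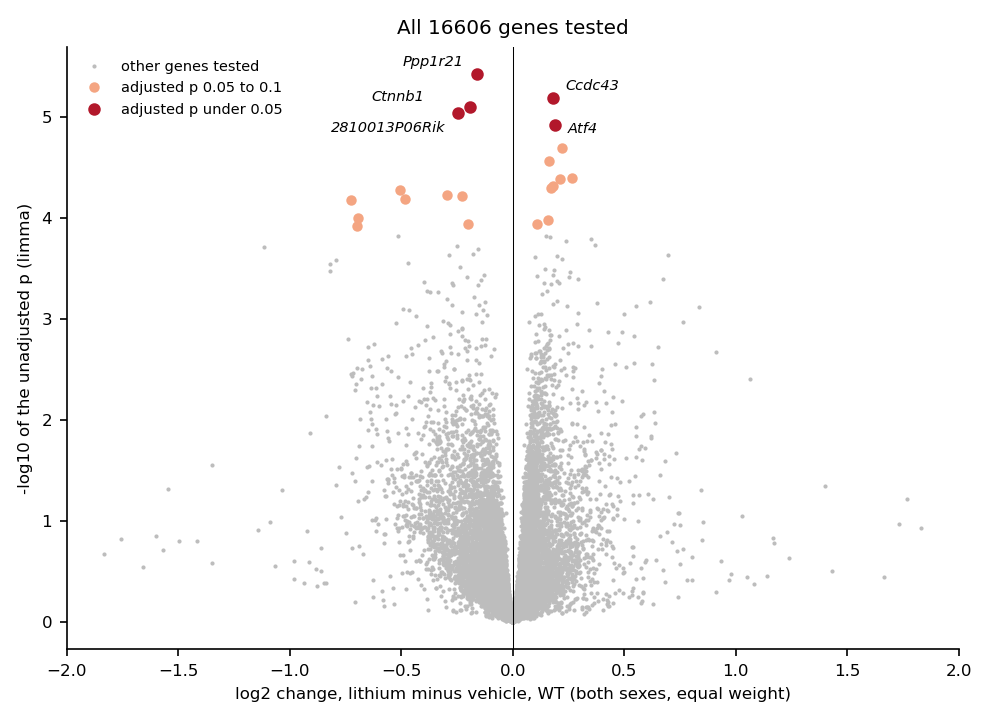
Change of each of the 16606 genes tested (x axis, log2 change, lithium minus vehicle in WT) against the negative log10 of its unadjusted limma p (y axis); 8 genes with a change beyond 2 in size lie outside the axis. The 5 called genes stand at the top with changes between -0.25 and 0.19, and 16 genes with an adjusted p from 0.05 to 0.1 lie just under them.

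The number of calls changed with the libraries used. It was 44 without WT lithium female 4, 14 without WT lithium female 3, 10 without WT vehicle female 3, 9 without WT vehicle male 2, 8 without WT lithium male 3, 2 without WT vehicle male 3, 1 without WT lithium male 2 and 0 without any 1 of the other 11 libraries. With both WT lithium female 3 and WT vehicle female 4 left out it was also 0, with 1461 genes at an unadjusted p under 0.05, and the called genes then had adjusted p-values of 0.0924 to 0.0939. DESeq2 on the recovered reads called 39 genes, 21 higher and 18 lower, and edgeR 6, while upper-quartile scaling left 3, all lower.

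Ctnnb1, which encodes beta-catenin, the effector of canonical Wnt signalling and a partner of cadherins at cell contacts, fell. Its normalised read counts were 16336, 15219, 15579 and 17362 in lithium females and 15905, 14728, 16361 and 16073 in lithium males, against 17451, 17371, 18182, 18527 and 17516 in vehicle females and 19491, 17427, 17530, 19297 and 19514 in vehicle males. Every lithium library lay under the lowest vehicle library, though WT lithium female 4 at 17362 was only just under it at 17371. The change was -0.19 ± 0.039 (limma, adjusted p = 0.0374), and the normalised read count fell by 12.5%. It was -0.14 ± 0.055 in females and -0.24 ± 0.055 in males, and the sexes did not differ beyond the error (unadjusted p = 0.218). The gene (ENSMUSG00000006932) lies on chromosome 9, 120929216 to 120960507, plus strand, GRCm38.

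Atf4, the transcription factor through which the integrated stress response raises amino acid synthesis and antioxidant genes, rose. Its counts were 3916, 3570, 3568 and 3067 in lithium females and 3818, 3812, 3331 and 3463 in lithium males, against 3045, 2983, 3301, 3156 and 3113 in vehicle females and 3083, 3247, 3164, 3228 and 2850 in vehicle males. Only WT lithium female 4 lay within the vehicle range, and the other 7 lithium libraries were above all 10 vehicle libraries. The change was 0.19 ± 0.039 (limma, adjusted p = 0.0392). The gene (ENSMUSG00000042406) lies on chromosome 15, 80255184 to 80257541, plus strand.

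Ppp1r21, which encodes a protein phosphatase 1 regulatory subunit found on early endosomes, fell and had the smallest p. Its counts were 1801, 1761, 1683 and 1711 in lithium females and 1739, 1625, 1779 and 1709 in lithium males, against 1996, 1932, 2055, 1930 and 1921 in vehicle females and 1859, 1809, 1865, 2078 and 1877 in vehicle males. The groups did not overlap, the highest lithium value being 1801 and the lowest vehicle value 1809. The change was -0.16 ± 0.031 (limma, adjusted p = 0.0374). The gene (ENSMUSG00000034709) lies on chromosome 17, 88530118 to 88588367, plus strand.

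Ccdc43, which encodes a coiled-coil protein, rose. Its counts were 608, 593, 537 and 548 in lithium females and 603, 591, 574 and 574 in lithium males, against 508, 503, 531, 488 and 529 in vehicle females and 480, 549, 495, 505 and 509 in vehicle males. WT vehicle male 2 at 549 was higher than 2 of the lithium females, and all other vehicle libraries were below every lithium library. The change was 0.18 ± 0.036 (limma, adjusted p = 0.0374). The gene (ENSMUSG00000020925) lies on chromosome 11, 102684686 to 102697782, minus strand.

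2810013P06Rik is a non-coding gene (ENSMUSG00000099881, chromosome 8, 123042466 to 123044602, plus strand) annotated as a bidirectional promoter transcript, with 188 bases between its start and that of Ankrd11 on the minus strand. It fell, with counts of 371, 382, 382 and 419 in lithium females and 361, 432, 443 and 319 in lithium males, against 491, 474, 453, 456 and 461 in vehicle females and 427, 484, 468, 457 and 422 in vehicle males. Lithium males 2 and 3 lay within the vehicle range. The change was -0.25 ± 0.050 (limma, adjusted p = 0.0374). Ankrd11, the chromatin regulator that shares this start region, had 6580 to 7130 with lithium and 6410 to 7000 with vehicle, a change of 0.02 ± 0.034 that did not pass the test.

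**Figure D3:**
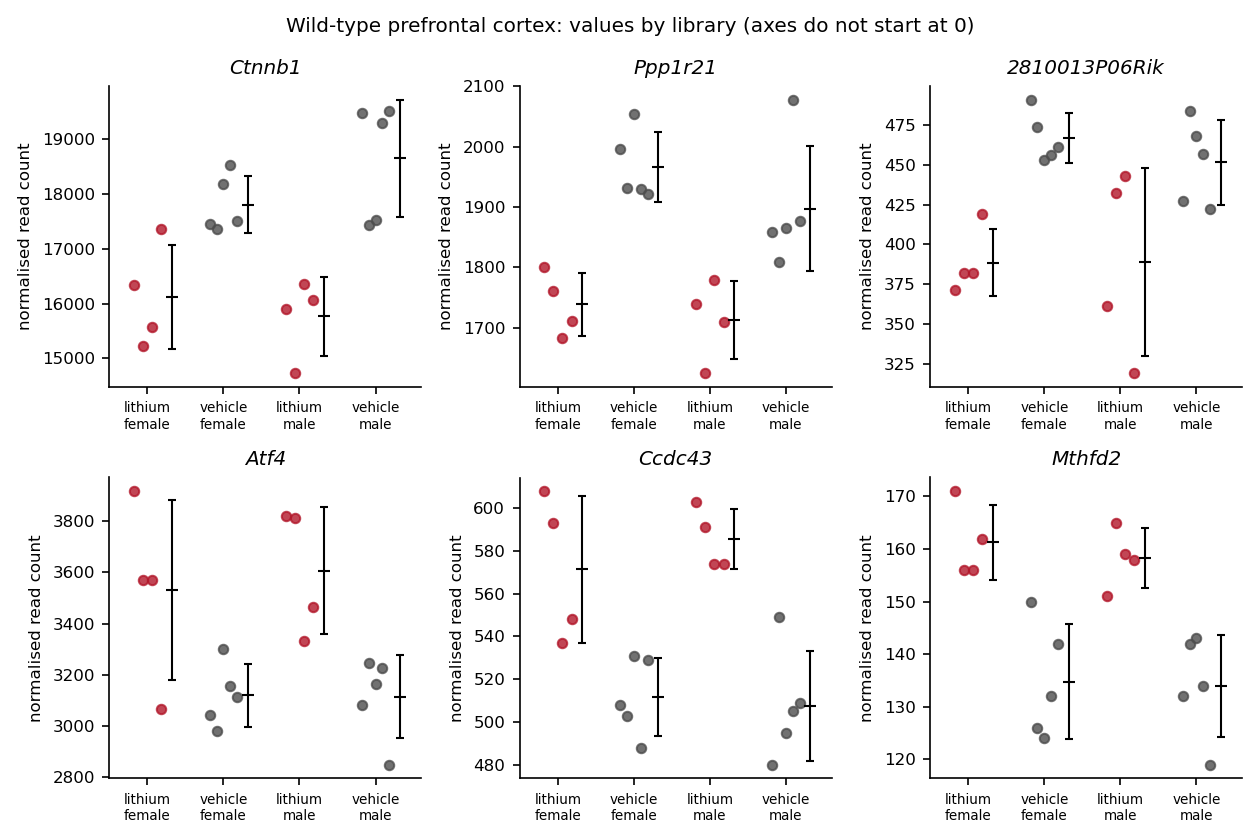
Normalised read count of the 5 called genes and of Mthfd2 in each WT library, lithium (red) beside vehicle (grey) within each sex; points are libraries and the bars to their right are the mean and SD (n = 4 per lithium group, n = 5 per vehicle group). For Ctnnb1, Ppp1r21 and Mthfd2 no lithium library falls within the range of the vehicle libraries.

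Complete separation of the groups was rare. The 8 lithium libraries lay all above or all below the 10 vehicle libraries for 3 genes (0.0181%). Ctnnb1 and Ppp1r21 were below (0.012%), and Mthfd2 was above (0.00602%). Mthfd2, a mitochondrial folate enzyme and a known target of ATF4, had 171, 156, 156 and 162 in lithium females and 151, 165, 159 and 158 in lithium males, against 150, 126, 124, 132 and 142 in vehicle females and 132, 142, 143, 134 and 119 in vehicle males. Its change of 0.25 ± 0.066 did not pass the test (limma, adjusted p = 0.127).

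The promoters of the called genes were searched for the letters of short DNA elements, planned for whichever genes were called. Only sequences of Ctnnb1, Atf4 and Ppp1r21 are printed, and for Ctnnb1 it is the one that held matches. RefSeq windows on GRCm38.p6, from 250 bases before to 50 bases after the start, were given for all 5 genes, with 2 starts for Ctnnb1. The letters CTTTGA (the core of the TCF/LEF element), CACGTG (the E-box) and TGACG (a part of the cAMP response element) were searched on both strands, and no 2 of them overlap in these windows. Capitals mark the matches, and CGTCA is TGACG read on the other strand.
Ctnnb1, chr9:120933328-120933627, plus strand: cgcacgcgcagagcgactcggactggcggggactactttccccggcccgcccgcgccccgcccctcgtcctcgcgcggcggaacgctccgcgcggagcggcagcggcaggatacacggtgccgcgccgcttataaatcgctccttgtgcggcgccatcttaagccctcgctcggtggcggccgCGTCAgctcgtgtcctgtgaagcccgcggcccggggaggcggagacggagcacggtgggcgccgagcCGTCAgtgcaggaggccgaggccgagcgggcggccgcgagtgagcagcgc
Atf4, chr15:80254934-80255233, plus strand: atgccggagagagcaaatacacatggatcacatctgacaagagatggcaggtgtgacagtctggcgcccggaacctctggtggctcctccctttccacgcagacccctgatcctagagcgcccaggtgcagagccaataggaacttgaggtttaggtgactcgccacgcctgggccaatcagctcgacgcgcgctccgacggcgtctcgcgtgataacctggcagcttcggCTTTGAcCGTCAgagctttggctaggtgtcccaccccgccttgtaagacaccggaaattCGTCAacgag
Ppp1r21, chr17:88529874-88530173, plus strand: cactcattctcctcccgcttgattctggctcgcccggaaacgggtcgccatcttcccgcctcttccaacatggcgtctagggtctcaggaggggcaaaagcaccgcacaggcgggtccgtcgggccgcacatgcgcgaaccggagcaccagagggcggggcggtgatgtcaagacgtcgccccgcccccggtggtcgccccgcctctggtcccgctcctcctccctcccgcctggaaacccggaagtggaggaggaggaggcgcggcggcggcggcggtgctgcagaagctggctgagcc
The Ctnnb1 window held 2 matches to TGACG and none to CTTTGA or CACGTG, and the other Ctnnb1 window held no match. The Atf4 window held 1 match to CTTTGA and 2 to TGACG, while the Ppp1r21 window held none, like that of Ccdc43, and that of 2810013P06Rik held 1 match to TGACG. Over 15496 windows of the genes tested, 12.2% held CTTTGA, 9.34% CACGTG and 28.9% TGACG, so a match is common and is only a description of these letters.

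In the Wnt pathway, Ctnnb1 was the one called gene. The list of pathway components (ligand receptors, the destruction complex and its regulators) had 22 members tested, 1 of which fell and none of which rose, with 12 changes above 0 and a median of 0.005, against 0.002 over all genes. Apc, the scaffold of the destruction complex, had a change of -0.19 ± 0.074 (limma, adjusted p = 0.369), with 25600 to 33500 in the lithium libraries and 29200 to 37700 in the vehicle libraries. The receptor Fzd1 had 0.16 ± 0.061 and the signal transducer Dvl3 0.09 ± 0.033, with adjusted p-values of 0.329 and 0.355. Gsk3b, a target of lithium at the protein level, had 6160 to 7010 with lithium and 5410 to 6990 with vehicle, and its change was 0.00 ± 0.050. Its sign was negative under 9 of 18 other processing settings, the lowest value being -0.0319 with all 4 dissection covariates.

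Of 20 tested targets of beta-catenin, none was called, 10 changes were above 0 and the median was -0.004. Axin2, the feedback inhibitor whose mRNA is the usual readout of canonical Wnt activity, had 762, 765, 766 and 729 in lithium females and 726, 764, 712 and 758 in lithium males, against 688, 712, 746, 754 and 732 in vehicle females and 841, 759, 751, 730 and 742 in vehicle males. These ranges overlap almost whole, and the change was 0.01 ± 0.053, with a negative sign after upper-quartile scaling. Ccnd2, a cyclin that drives cells into the cycle, had the smallest p of the list and a change of 0.37 ± 0.092 (limma, adjusted p = 0.11). It had 2640 to 3510 with lithium and 2140 to 2930 with vehicle, and all 8 lithium libraries were above the vehicle mean of their sex. Ccnd1 had 0.08 ± 0.060 and Myc -0.19 ± 0.111.

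The other known target of lithium is the inositol cycle, in which inositol monophosphatase frees inositol for the resynthesis of phosphoinositides. None of its 34 genes was called, 16 changes were above 0 and the median was -0.006. Impa1, which encodes the inhibited phosphatase, had 1909 to 2142 with lithium and 1778 to 1993 with vehicle and a change of 0.08 ± 0.029 (limma, adjusted p = 0.314), higher in 7 of 8 lithium libraries than the vehicle mean of their sex. Slc5a3, the sodium-coupled myo-inositol transporter, had 0.26 ± 0.127 (adjusted p = 0.514) with 604 to 1120 against 570 to 818. Of 24 genes of osmotic and sodium handling none was called, and Atp1b1, a subunit of the sodium pump, had 0.05 ± 0.032.

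In the list of the unfolded protein and integrated stress responses, Atf4 rose and none of the other 24 tested members was called. Changes were above 0 in 20 of 25 members, and the median was 0.047, with 0.099 in females and -0.002 in males. After Mthfd2, the members with the smallest p were Sesn2, a stress-induced regulator of nutrient signalling, with 0.21 ± 0.067, and Chac1, an enzyme that breaks down glutathione, with 0.20 ± 0.074. Ddit3, the factor also called CHOP, had 0.18 ± 0.084. Their adjusted p-values were 0.229, 0.344 and 0.478. Sesn2 had 360 to 541 with lithium and 330 to 437 with vehicle, so its groups overlap. Asns, the asparagine synthetase and another target of ATF4, had 0.06 ± 0.052 (adjusted p = 0.789). Among 17 heat shock genes and chaperones none was called, and Hspe1, a mitochondrial chaperonin, had 0.11 ± 0.037.

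Nuclear-encoded subunits of oxidative phosphorylation were higher more often than not. None of 77 was called, but 71 changes (92.2%) were above 0, against 50.9% over all genes. At an unadjusted limma p under 0.05, 15 were higher and none lower, where 4.97% of all genes were higher and 4.41% lower. The list had a median of 0.047, equal to a difference of a few percent. The median was 0.067 in females and 0.026 in males, and 0.073 without WT lithium female 3. Ndufab1, an accessory subunit of complex I and the mitochondrial acyl carrier protein, had 1470 to 1720 with lithium and 1260 to 1520 with vehicle, a change of 0.18 ± 0.051 (limma, adjusted p = 0.162). Ndufs5, another complex I subunit, had 0.17 ± 0.052 (adjusted p = 0.208), with 1630 to 2070 against 1460 to 1700. The transcripts of these genes are short, with a median length of 607 bases against 1570 over all genes. Over the 3799 genes no longer than the upper quartile of the list, 53.8% of changes were above 0 and the median was 0.007. The 79 cytosolic ribosomal protein genes, whose transcripts are also short and whose reads may be shared with processed pseudogenes, had 45 changes above 0 and a median of 0.004, with 0.053 in females and -0.052 in males. Of 13 mitochondrially encoded mRNAs 11 were above 0, with a median of 0.053 that was 0.084 without WT lithium female 3, and none was called.

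Genes driven by neuronal activity and by stress hormones had positive medians without a call. Of 21 immediate early genes, 17 were above 0, the median was 0.173 (0.092 without WT lithium female 3), and Fosl2, with the smallest p, had 0.57 ± 0.235 (limma, adjusted p = 0.413) on counts of 792 to 2820 with lithium and 601 to 2420 with vehicle. In the list of BDNF and CREB signalling 18 of 24 were above 0 and the median was 0.08. At an unadjusted limma p under 0.05, 6 members were higher and 2 lower (4.97% and 4.41% over all genes). Gadd45b, a growth arrest gene induced by activity, had 0.55 ± 0.153, the neuropeptide precursor Vgf 0.25 ± 0.076 and Bdnf itself 0.33 ± 0.116, each above the vehicle mean of its sex in 8 of 8 lithium libraries and with adjusted p-values of 0.162, 0.222 and 0.311. Bdnf had 882 to 1330 with lithium and 733 to 1150 with vehicle. Of 17 glucocorticoid-responsive genes 15 were above 0, with a median of 0.132, and 5 were higher at an unadjusted p under 0.05 (4.97% over all genes). Ddit4, an mTOR inhibitor, had 0.38 ± 0.105, Nfkbia, the inhibitor of NF-kappaB, 0.29 ± 0.084 and the kinase Sgk1 0.23 ± 0.074, with adjusted p-values of 0.162, 0.191 and 0.243. Of 21 clock genes none was called, and the median was 0.027 (0.017 without WT lithium female 3). Per3 had -0.23 ± 0.064 (limma, adjusted p = 0.172) and Dbp -0.22 ± 0.087.

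Interferon-stimulated genes were lower more often than not. Of 21 tested 2 were above 0 and none was called, and the median was -0.256, against 0.002 over all genes. Ifit3b had 49.8, 85.8, 43.5 and 139 in lithium females and 37.6, 70.1, 70.6 and 59.9 in lithium males, against 120, 86.7, 91.3, 122 and 105 in vehicle females and 133, 109, 95.6, 102 and 122 in vehicle males. WT lithium female 4 at 139 was above every vehicle library and the other 7 lithium libraries were below all of them, and the change was -0.74 ± 0.221 (limma, adjusted p = 0.215). Ifit3b and Ifit3 are near-identical copies between which reads may be split, and Ifit3 had -0.48 ± 0.207. Oas1a, which makes the second messenger that activates RNase L, had -0.70 ± 0.225 at low counts of 11.9 to 18.8 with lithium and 14.6 to 53 with vehicle. Without WT vehicle female 4 the median of the list was -0.179.

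Markers of vessels and of microglia also lay below 0. Of 12 mural cell markers 1 was above 0 and 5 were lower at an unadjusted p under 0.05 (4.41% over all genes), with a median of -0.114. Acta2, the smooth muscle actin, had 267, 322, 243 and 380 in lithium females and 321, 273, 293 and 302 in lithium males, against 340, 441, 363, 419 and 373 in vehicle females and 440, 363, 375, 408 and 543 in vehicle males, a change of -0.44 ± 0.124 (limma, adjusted p = 0.174). Pdgfrb, the pericyte receptor, had -0.18 ± 0.064 and Myh11, the smooth muscle myosin, -0.27 ± 0.102. Summed over the list, the counts were 6780 to 9480 with lithium and 8060 to 10400 with vehicle. Endothelial markers had 2 of 15 above 0 and a median of -0.086. Fewer cells of a type and less RNA per cell cannot be told apart in bulk tissue. Without WT vehicle female 4, the library rich in choroid plexus, the median was -0.069 for mural cells and -0.044 for endothelium, and with covariates for choroid plexus, leptomeningeal, striatal and olfactory bulb markers it was -0.059 and -0.023. Without WT lithium female 3 the endothelial median was -0.048.

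Microglial markers had 3 of 16 above 0 and a median of -0.071, and Cx3cr1, the fractalkine receptor, had 942 to 1330 with lithium and 1130 to 1540 with vehicle, a change of -0.22 ± 0.077 (limma, adjusted p = 0.3). Trem2 had -0.22 ± 0.095. Their summed counts ran from 13100 to 16800 with lithium and from 14600 to 16600 with vehicle. Lithium females 1 and 3 (13100 and 14100) and lithium males 1, 3 and 4 (13700, 13400 and 13800) lay below every vehicle library. Lithium female 2 (15600) and lithium male 2 (16400) lay within the vehicle range, and lithium female 4 (16800) above it. Without WT vehicle female 4 or WT lithium female 3, 6 of 16 microglial markers were above 0, with medians of -0.062 and -0.065. No marker of oligodendrocyte precursors of 14 was above 0, with a median of -0.079, but without WT vehicle female 4, the vehicle library with the highest sum of these markers, 4 of 14 were above 0 and the median was -0.048. Without WT lithium female 3 it was 1 of 14 and -0.052. Cspg4, the proteoglycan NG2, had -0.20 ± 0.081. Myelin markers had a median of -0.095, with -0.224 in females and 0.05 in males, -0.017 without WT vehicle female 4 and -0.023 without WT lithium female 3. Astrocyte markers had 4 of 14 above 0 and a median of -0.049. In none of these lists was a member called.

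Neuronal lists stayed near 0 in their medians. They were -0.003 for 24 presynaptic genes, -0.000 for 38 glutamate receptor and postsynaptic genes, 0.014 for 22 GABA genes, 0.018 for 48 potassium and calcium channel genes and -0.021 for 19 serotonin and dopamine genes, with no call. Without WT vehicle female 4 the channel median was -0.009 and the GABA median -0.006, and that of the serotonin and dopamine genes was 0.017, or 0.047 without WT lithium female 3. Rims1, an active zone scaffold, had -0.37 ± 0.117 (limma, adjusted p = 0.226) with 5730 to 8300 in the lithium libraries and 6570 to 11500 in the vehicle libraries, and the vesicle protein Vamp1 had -0.25 ± 0.086. The complexin Cplx1 had 0.13 ± 0.045. Htr1a, a serotonin receptor, had -0.30 ± 0.123. Upper-layer markers had a median of -0.023, deep-layer markers 0.04 and interneuron markers 0.047, the last with Pvalb at 0.29 ± 0.152. The upper-layer median was -0.038 without WT vehicle female 4, and without WT lithium female 3 the deep-layer median was 0.11 and the interneuron median 0.003. Of 21 genes of immature neurons 14 were above 0, with a median of 0.044. Without WT lithium female 3 it was 9 of 21 and -0.019. With the olfactory bulb covariate it was 6 of 21 and -0.018, and with all 4 dissection covariates 7 of 21 and -0.066. Tubb3, the neuronal tubulin, had the smallest p of this list, with 0.20 ± 0.055 (limma, adjusted p = 0.161). The 15 olfactory bulb markers were all above 0, with a median of 0.322 and no unadjusted p under 0.05, and without WT lithium female 3 it was 10 of 15 and 0.095. WT vehicle male 2 had the highest summed counts of olfactory bulb (33900), immature neuron (65500) and interneuron genes (62300). List medians without WT vehicle male 2 were not computed.

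**Figure D4:**
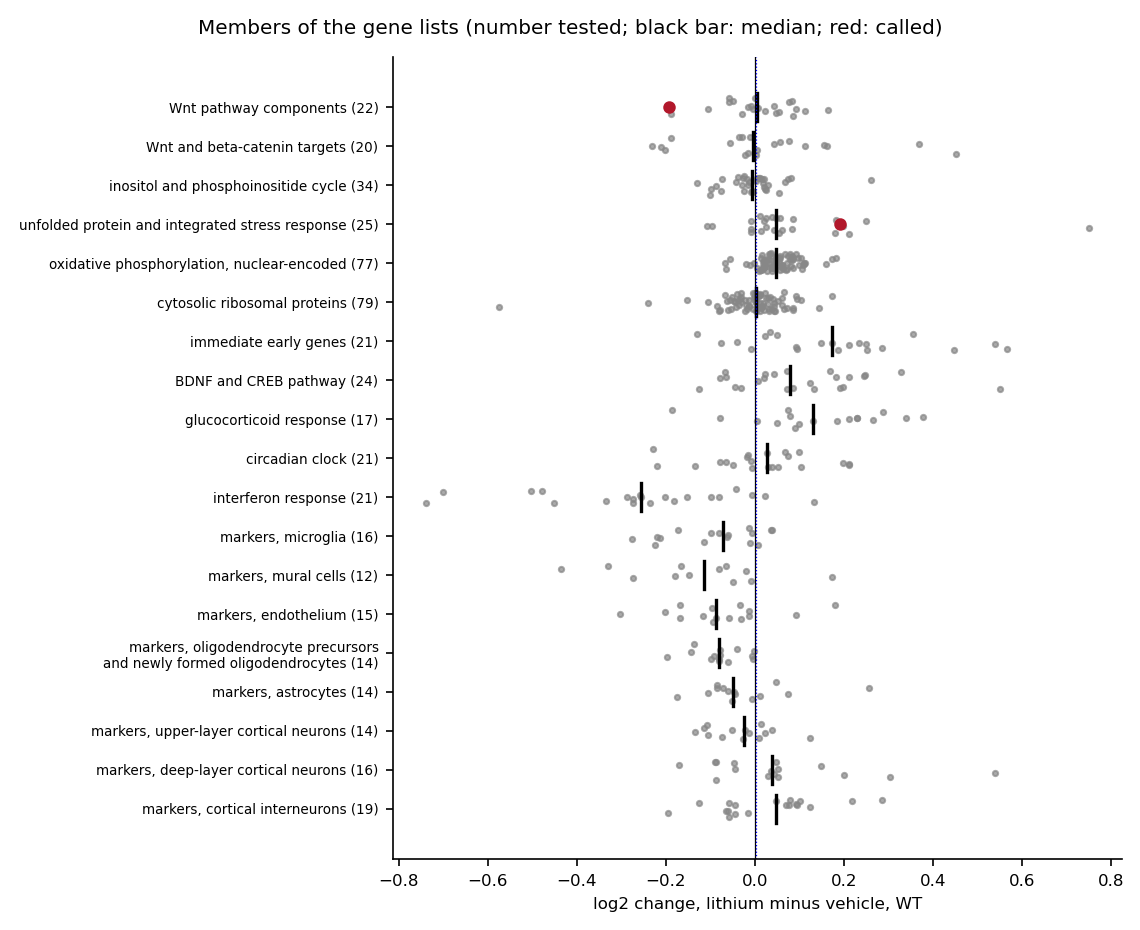
Log2 change of each tested member (points) of 19 gene lists, lithium minus vehicle in WT, with the list's median as a black bar, the median of all genes as a dotted line, called genes in red and the number tested in brackets. Ctnnb1 and Atf4 are the called members, oxidative phosphorylation genes lie mostly right of 0 (71 of 77) and interferon genes mostly left of it (2 of 21 above 0).

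The remaining lists gave no call. Cholesterol synthesis and SREBP2 targets had 7 of 23 above 0 and a median of -0.029, with -0.098 in females and 0.051 in males. Without WT lithium female 3 it was 11 of 23 and -0.006, and without WT vehicle female 4 it was 9 of 23 and -0.015. With all 4 dissection covariates it was 10 of 23 and -0.001. Mvk, the mevalonate kinase, had -0.17 ± 0.076. Medians were 0.005 for fatty acid synthesis, 0.02 for lysosome and autophagy, -0.002 for thyroid hormone and retinoid genes, -0.06 for the perineuronal net, -0.046 for proliferation, -0.031 for chromatin genes of neurodevelopmental disorders and 0.002 for the NCoR/SMRT corepressor, of which TBL1XR1 is a subunit. Without WT vehicle female 4 the median of the perineuronal net was 0.01 and that of proliferation -0.004, with 9 of 19 proliferation genes above 0 where all libraries gave 5. Without WT lithium female 3 the proliferation median was -0.025. Upper-quartile scaling shifted the median of all genes by -0.0161 and turned the medians of 6 lists negative, namely Wnt pathway components, osmotic handling, fatty acid synthesis, ribosomal proteins, GABA genes and the corepressor, which were between 0.002 and 0.014 without it. In the lists of this group the retinoic acid receptor Rara had 0.31 ± 0.139, the autophagy receptor Sqstm1 -0.13 ± 0.051 and the protease inhibitor Timp2 0.12 ± 0.059, none past the threshold.

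Just short of the threshold, with adjusted p-values from 0.05 to 0.1, were 16 genes, of which 12 are named protein-coding genes, chosen here after their values were seen. The 8 that were higher included Slc19a2, a thiamine transporter (0.27 ± 0.060), Slc35f6 (0.22 ± 0.047), Hnrnpa1, a splicing regulator with many pseudogenes (0.21 ± 0.047), Aen, a nuclease induced by p53 (0.18 ± 0.040), Eif1b, a translation initiation factor (0.16 ± 0.038), and Hspa9, the mitochondrial chaperone mortalin (0.11 ± 0.026), beside Rwdd4a and Zfp444 (0.17 each). The 4 that were lower were Cd180, an immune receptor related to the toll-like receptors (-0.72 ± 0.166), Fahd2a (-0.29 ± 0.067), Ahi1, a protein of the primary cilium (-0.22 ± 0.051), and Tfdp2, a partner of E2F factors (-0.20 ± 0.048). Cd180 had low counts of 45.6, 42.9, 60.3 and 78.1 in lithium females and 31.9, 32.9, 34.3 and 38.4 in lithium males, against 88.1, 90.1, 47.5, 75.9 and 76.1 in vehicle females and 83.5, 66.6, 83.7, 50.4 and 77.8 in vehicle males. The lithium males were all below every vehicle library, and the females overlapped. Slc35f6 had 1087, 939, 873 and 946 in lithium females and 1064, 935, 1022 and 1035 in lithium males, against 798, 805, 867, 838 and 843 in vehicle females and 843, 848, 837, 875 and 886 in vehicle males, with WT lithium female 3 at 873 the one lithium library within the vehicle range.

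Taken sex by sex, neither females nor males gave a call with limma. In females 978 genes (5.89%) had an unadjusted p under 0.05, and edgeR and DESeq2 called 0. In males it was 755 genes (4.55%), with 0 calls by edgeR and 1 by DESeq2. The effect of lithium did not differ between the sexes for any gene with limma, edgeR or DESeq2, and 303 genes (1.82%) had an unadjusted p under 0.05 in the limma test of the difference. The 3 named genes with the smallest p, given as male minus female differences of the lithium change, were Crybg2 with 1.52 ± 0.406, the Wnt ligand Wnt5b with -0.86 ± 0.237 and the nuclear receptor Nr6a1 with 0.62 ± 0.177. Crybg2 had at most 29.2 reads with lithium and 26.5 with vehicle in any library, and Wnt5b at most 76.7 and 85.8. Each of the 5 called genes had the same sign in both sexes.

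The HT lithium and vehicle libraries are a set of the same treatment that shares no library with the WT comparison. The normalisation and the error estimate are common to both. The labels name no dam or litter, so whether WT and HT mice shared them is not known. Signs and calls shared by the genotypes are therefore not an independent check. In HT 64 genes were called (0.385%). All 5 genes called in WT had the same sign in HT, and 3 were also called there. Ctnnb1 changed by -0.19 ± 0.039 in WT and by -0.26 ± 0.037 in HT (limma, adjusted p = 6.39e-05), Ppp1r21 by -0.16 ± 0.031 and -0.18 ± 0.029 (adjusted p = 0.000897 in HT) and Atf4 by 0.19 ± 0.039 and 0.18 ± 0.037 (adjusted p = 0.0171 in HT). In HT, Ctnnb1 had 14231 to 16787 with lithium and 16568 to 21544 with vehicle, so that the lowest vehicle library lay just inside the lithium range. These 3 calls in HT held with each of the 20 HT libraries left out in turn.

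The other 2 called genes had smaller changes in HT. Ccdc43 had 0.18 ± 0.036 in WT and 0.05 ± 0.034 in HT, and 2810013P06Rik -0.25 ± 0.050 and -0.04 ± 0.047. The differences of 0.13 ± 0.050 and -0.21 ± 0.068, WT minus HT, had unadjusted p-values of 0.00947 and 0.00392 and an adjusted p of 0.998 each, so they did not pass. No gene passed the test of the difference between WT and HT with limma or edgeR, DESeq2 called 4, and 609 genes (3.67%) had an unadjusted p under 0.05. The 3 named genes with the smallest p were Kctd3 with a difference of 0.14 ± 0.039, Ntsr1, the deep-layer neurotensin receptor, with 0.45 ± 0.126 and the reductase Akr1b10 with 0.30 ± 0.084. For Ntsr1 the change was 0.20 in WT and -0.25 in HT.

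Over wider sets the 2 genotypes shared more signs the smaller the p in WT. Of all genes tested 62.2% had the same sign in HT, with a Pearson correlation of 0.159 across genes, which are not independent replicates. Of the 1558 genes at an unadjusted p under 0.05 in WT it was 84.3% (r = 0.371), and of the 89 genes at an unadjusted p under 0.001 it was 94.4% (r = 0.723), 10 of them called in HT. Of the 12 genes just short of the threshold 11 had the same sign and 1, Slc35f6, was called in HT (0.20 ± 0.045, adjusted p = 0.0213). Mthfd2 changed by 0.25 in WT and 0.21 in HT and Sesn2 by 0.21 in WT and 0.26 in HT, the last called there (adjusted p = 0.0348). The medians of the lists were less alike. For oxidative phosphorylation the median was 0.047 in WT and 0.092 in HT, for interferon genes -0.256 and -0.110. It was -0.114 and -0.133 for mural cells and 0.173 and 0.061 for immediate early genes. Other lists differed in sign, such as the unfolded protein and integrated stress responses with 0.047 and -0.031. Heat shock genes and chaperones had 0.047 and -0.05, with 13 and 3 of 17 above 0. Mitochondrially encoded mRNAs had 0.053 and -0.028, and deep-layer markers 0.04 and -0.114.

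**Figure D5:**
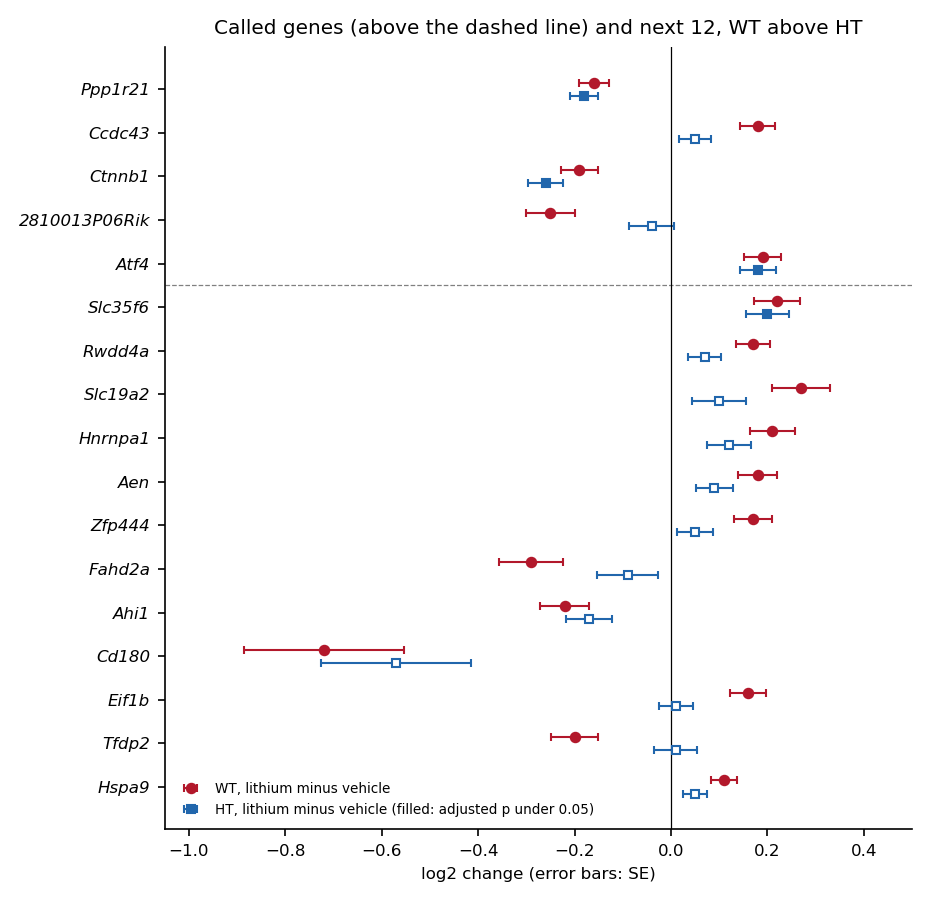
Log2 change, lithium minus vehicle, with SE, of the 5 called genes (above the dashed line) and of the 12 genes with an adjusted p from 0.05 to 0.1, for WT (red circles) above HT (blue squares, filled where the adjusted p in HT was under 0.05). Ctnnb1, Ppp1r21, Atf4 and Slc35f6 have filled squares close to their circles, and Ccdc43, 2810013P06Rik, Eif1b and Tfdp2 have squares near 0.

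Fluoxetine in WT, compared with the same vehicle libraries, called 61 genes (0.367%). With fluoxetine Ctnnb1 had 0.05 ± 0.037, Atf4 0.01 ± 0.037, Ppp1r21 -0.04 ± 0.029, Ccdc43 0.07 ± 0.034 and 2810013P06Rik -0.12 ± 0.047. Since the vehicle libraries are shared, these are set side by side and not as an independent check.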

How the data were processed

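RNA sequencing of prefrontal cortex was deposited as 1 table of 18088 genes and 58 libraries in 12 groups, made with a stranded mRNA kit per the labels' protocols. The deposited values are a linear signal, namely the reads of a library over its size factor. Tools named in the submitters' processing notes are DESeq2 1.19.11, Salmon 0.11.2 and R 3.6.0, with the build GRCm38. The treatment of reads with several possible genes is not given in the sources used. In every library 100% of values were whole multiples of 1 step at a tolerance of 0.0001, which gave the reads used for depth, edgeR and DESeq2. Depth was 24.73 to 31.66 M reads in WT lithium and 23.53 to 35.01 M in WT vehicle, and size factors lay between 0.8213 and 1.2151. GENCODE mouse release M21 matched 18077 IDs.

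Groups were taken from the sample titles. The limma 3.58.1 model (R 4.3.3, trended variance) of log2(value + 1) held 16606 genes whose mean reached 10, with 12 group means, 46 residual degrees of freedom and Benjamini-Hochberg adjustment at 0.05. A fold change on this scale understates that of low genes. The script was tested on simulated data. Promoter sequences are from RefSeq on GRCm38.p6.

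The comparison and the gene lists were chosen with earlier results of these data known. Named genes are Tbl1xr1, the called genes, per list the called members or else the 2 with the smallest p, and for the sex and genotype differences the 3 with the smallest p. Members beyond these, Axin2, Gsk3b, Asns, Mthfd2 and the genes just short of the threshold were named after their values were seen, as were the genes picked where the rule names more than the text gives. Predicted genes were counted, not named. The lists are described by counts and medians, with no test.

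The alternatives were a pseudocount of 0.5 or 5, no minimum mean or one of 50, upper-quartile, median and TMM scaling, array weights, only the libraries of the comparison, covariates from striatal, olfactory bulb or choroid plexus and leptomeningeal markers, the replicate number as a block, edgeR 4.0.16, DESeq2 1.42.0, and each library left out in turn. All 4 covariates together, and 2 libraries left out together, were added after seeing the data.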

Additional observations from a re-analysis of the deposited data

Results flagged for a closer look

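Each set of values within a group of 4 or 5 libraries was searched for a highest or lowest library far from the rest of its group. There were 92 such sets over all WT lithium and vehicle groups together. They came from the called genes, Tbl1xr1, Ankrd11 and the summed marker lists. Chance flags about 1 in 20 such groups. Among the called genes, Ppp1r21 in WT vehicle male 4 was found, at 2078, above the other vehicle males.

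WT vehicle female 4 stood above the other vehicle females in the summed markers of choroid plexus with 57139, of leptomeningeal fibroblasts and collagen with 37915, of striatal projection neurons with 29741 and of ependyma with 925. WT lithium female 3 stood above the other lithium females in olfactory bulb markers with 25512 and in leptomeningeal markers with 34080. WT lithium male 2 stood above the other lithium males in the summed markers of microglia with 16390 and of endothelium with 16746. With WT lithium female 3 left out 14 genes were called, with WT vehicle female 4 left out 0 and with WT lithium male 2 left out 1.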

How the results depend on the processing

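Against 5 calls in WT, the count was 39 with DESeq2, 284 with array weights (155 higher, 129 lower), 29 with the olfactory bulb covariate, 14 with the choroid plexus and leptomeningeal covariates, 33 with all 4 covariates together, 3 with upper-quartile scaling (0 higher, 3 lower), 0 with median centring, 0 with only the 18 libraries of the comparison (14 degrees of freedom), 0 with both WT lithium female 3 and WT vehicle female 4 left out, and 0 to 44 with each library left out in turn; the cause was not tested. The pseudocounts, no minimum mean and TMM scaling gave 5, the striatal covariate and edgeR 6, and a minimum mean of 50 gave 7. Array weights called 34 genes in females and 12 in males, DESeq2 1 in males and 4 for the difference between WT and HT, and the other alternatives gave 0 for the single sexes and both differences. Each of the 5 called genes kept its direction in all 36 alternatives and passed in 17 to 21 of them, with adjusted p-values from 0.0011 to 0.243. Gsk3b turned to -0.0022 with DESeq2, -0.0023 with edgeR, -0.0015 with TMM scaling, -0.0149 with upper-quartile scaling, -0.0085 with array weights, -0.0319 with all 4 covariates, -0.0236 with the choroid plexus and leptomeningeal covariates, -0.0253 with both libraries left out, -0.0043 with the replicate block, and lay between -0.0291 and 0.0167 with each library left out in turn. Axin2 turned to -0.0106 with upper-quartile scaling and lay between -0.0042 and 0.0229 with each library left out, and Ankrd11 to -0.0005 with both libraries left out.

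With the replicate number of the titles as a block within each sex, 3 genes were called (1 higher, 2 lower), and with the number in the library name 5. Same-numbered lithium and vehicle libraries correlated between -0.35 and 0.184 in their deviations from the group means, so the numbers are not taken to pair them. Depth limits the low genes most: changes under the median SE of 0.074 lay within the error of a typical gene, and the reads are not independent molecules.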

Other observations

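WT lithium female 4 had the highest Ctnnb1 (17362), the lowest Atf4 (3067) and the highest Ifit3b (139) of the lithium libraries, and the count of calls without it was 44. Over the 89 genes at an unadjusted p under 0.001, it was the lithium library least shifted from the vehicle mean of its sex, in the direction of the gene's change, for 29 genes, WT lithium male 3 was so for 22 and WT lithium female 3 for 14. Its median shift over these genes was 0.12 on the log2 scale, that of WT lithium male 3 was 0.15, and those of the other 6 lithium libraries ran from 0.22 to 0.36. These genes were chosen with all 8 libraries, so the shifts are a description. WT lithium female 4 had 25.33 M reads, the highest summed microglial marker count of the lithium libraries (16800) and the lowest upper-layer neuronal marker count (31400). The labels give no measure of the lithium that each pup received.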
